A study of Mus musculus with 9 samples.

Results

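AP-1 is a family of transcription factors whose members bind DNA in pairs. Its 8 members described here are Fos, Fosb, Fosl1, Fosl2, Jun, Junb, Jund and Atf3, taken by gene symbol from the 47729 Ensembl genes counted in mouse retina. Bulk RNA sequencing covered 3 groups of 3 whole-retina libraries on a C57Bl6/J background, with 1 frozen retina per P60 library. In Yap CKO retinas, floxed Yap was combined with Rax-CreERT2, whose Cre acts in Müller cells, the radial glia of the retina, once tamoxifen is given. Control retinas carried floxed Yap without that Cre, although their genotype entry reads Yap CKO. Mice of both groups were injected with 4-hydroxytamoxifen (4-OHT) at P10, and their retinas were examined at P60. C57 retinas were wild type, taken at P30, and came from an earlier series. The P60 library names contain the letters MNU, for which the labels describe no treatment. Nothing in the labels states that the retinas of a group came from different animals, so p-values measure the spread between these samples.

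AP-1 proteins share a basic region that contacts DNA and a leucine zipper through which they pair. Jun proteins pair with each other or with Fos proteins, Fos proteins need a Jun-type partner, and Atf3 pairs with itself or with Jun proteins. Fos, Fosb, Jun, Junb and Atf3 are immediate-early genes, transcribed within minutes of growth factor, stress or injury signals through ERK, JNK and p38 kinases. Fosl1, which encodes FRA-1, is a slower target of the ERK pathway and of AP-1 itself, and AP-1 is known to share many enhancers with YAP and its TEAD partners. In glia, AP-1 is known as part of the response to injury.

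The DNA in front of the members was searched for short motifs, some of them known from responses to such signals. Short stretches of it are printed for the members with a match. RefSeq promoters on GRCm38.p6 matched 7 of 8 members, all but Fosl1, and the 250 bases before each listed start were searched on both strands. Capitals mark matches to the CRE half-site TGACG, the variant CRE TGACATCA and the TATA box TATAAA. Each line runs 5′ to 3′ along the gene's strand, and the Atf3 start that RefSeq lists lies inside the span of the gene in GENCODE M21.

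Fos (chr12:85473751-85473872, plus strand): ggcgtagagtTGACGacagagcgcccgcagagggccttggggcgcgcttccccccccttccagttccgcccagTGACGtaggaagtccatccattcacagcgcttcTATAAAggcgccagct
Jun (chr4:95052250-95052277, minus strand): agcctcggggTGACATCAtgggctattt
Fosb (chr7:19310091-19310115, minus strand): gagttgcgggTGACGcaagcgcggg
Junb (chr8:84978840-84978864, minus strand): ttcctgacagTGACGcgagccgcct
Atf3 (chr1:191183334-191183350, minus strand): aatagcattaCGTCAgc

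The half-site stood in 4 of these members, with its reverse complement in Atf3, and 17.8% of all 32851 promoters held it. TGACATCA stood in Jun and in 2.93% of all promoters, and TATAAA in Fos and in 12.4%. The AP-1 site TGACTCA (4.46% of promoters), the full CRE TGACGTCA (1.55%, which contains the half-site), the TEAD motif GGAATG (12.6%) and the CArG box (1.47%) were not found in the 250 bases of the 7 members. A match describes letters only.

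Every AP-1 member was higher in both P60 groups than in C57. Between the P60 groups, Fosl1 alone passed the edgeR threshold (adjusted p = 0.0188), while Fosl2, also lower in Yap CKO, missed it (adjusted p = 0.0647). Levels are given as CPM, read counts relative to library size, with TMM factors that correct for composition over all 9 libraries. Levels are compared between genes only as RPKM, CPM per kilobase of exon in GENCODE M21.

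Fosl1 (ENSMUSG00000024912, chromosome 19, 5447547 to 5455946, plus strand, GRCm38) was barely detected in C57, with 3, 2 and 0 counts in C57 1, C57 2 and the unnumbered C57 library. These correspond to 0.251, 0.144 and 0 CPM. A limit of 3 counts, set by convention for a count of 0 and not a maximum, corresponds to 0.208 CPM in the unnumbered C57 library. In control 1, 2 and 3 Fosl1 stood at 153, 179 and 160 CPM. In Yap CKO 1, 2 and 3 it stood at 87.1, 89.4 and 94.1 CPM. The 3 ranges lay apart, with Yap CKO between C57 and control.

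**Figure D1:**
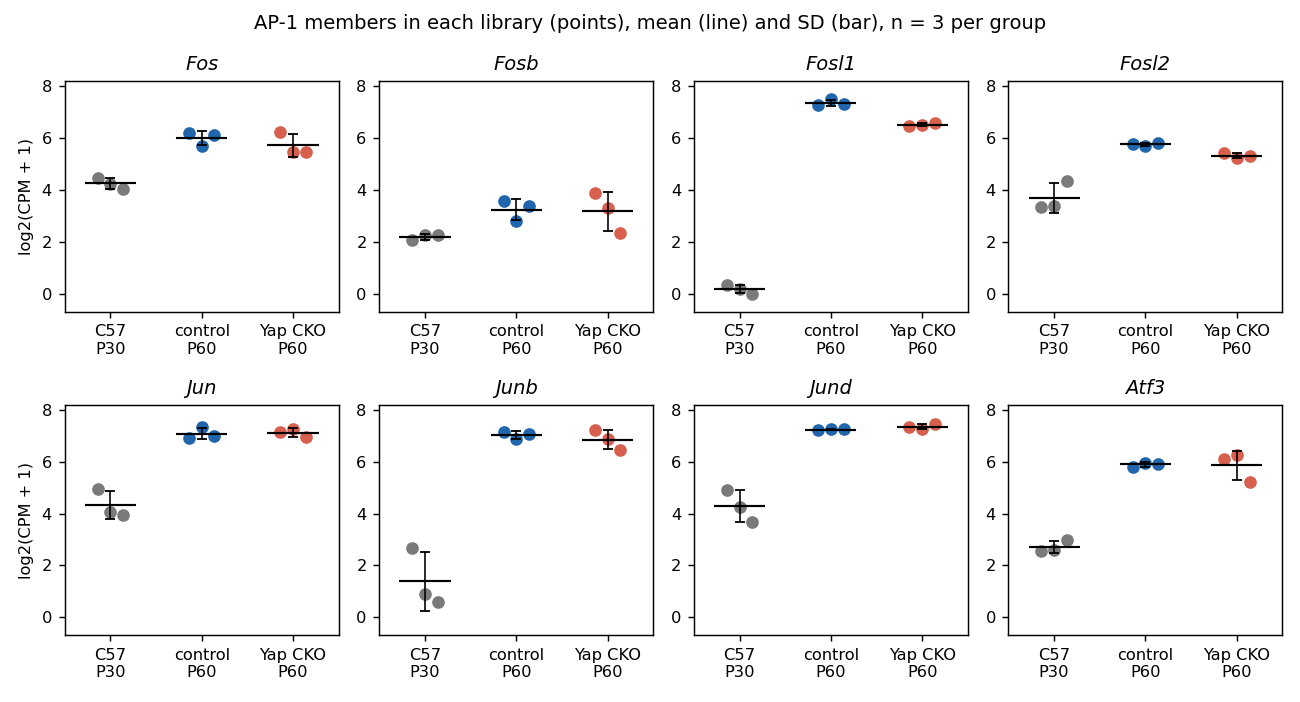
Level of each AP-1 member as log2(CPM + 1) in the 9 libraries, by group; points are libraries, lines the mean and bars the SD (n = 3). All 8 members are higher at P60, and Fosl1 and Fosl2 lie lower in Yap CKO than in control without overlap.

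Control libraries held 19341 Fosl1 counts against 5 in C57, a ratio of 1320 after scaling (95% Poisson interval 565 to 4060). For Yap CKO, 10582 counts gave a ratio of 725 (311 to 2230). These intervals cover counting error only. The fitted log2 fold changes were 10.27 (SE 0.34, adjusted p = 5.06e-06) and 9.40 (SE 0.36, adjusted p = 4.94e-06), values that depend on the prior count where one group is near 0. These SE understate the error, since on the log2 scale the edgeR intervals are narrower than the counting intervals above. DESeq2 gave an SE of 0.662 in control. By size of the increase, Fosl1 ranked 5th of 15820 genes in control and 6th of 15840 in Yap CKO against C57. Fosl1 passed the filter on low counts through the P60 libraries alone, so it could enter these tests only as higher. Its rank and calls against C57 are therefore a description and not separate evidence.

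Between the P60 groups, Fosl1 was 1.82-fold lower in Yap CKO, at 90.2 ± 3.55 CPM against 164 ± 13.4 CPM (SD, n = 3; log2 fold change -0.86, SE 0.0808, 95% interval -1.05 to -0.67). It passed the edgeR test over all genes (adjusted p = 0.0188) and ranked 6th of 16539 genes by p. It was the only one of 8 members to do so. Of all genes tested, 0.181% were called lower and 0.0181% higher in this comparison. By DESeq2, 4% of genes were called lower and 2.61% higher, among them Fosl1 and Fosl2 as lower and no member as higher. The authors' deposited table lists Fosl1 with a log2 fold change of -0.85 and a false discovery rate of 2.97e-05 for this comparison. The authors' deposited table holds 305 genes with a log2 fold change of at least 0.59 in either direction here, so smaller differences such as that of Fosl2 could not be in it. Yap1, the gene targeted in the Yap CKO retinas, stood at 57.6 to 67.4 CPM in control and 15.3 to 24.3 CPM in Yap CKO. In C57 Yap1 was at 23.4, 25.1 and 30.4 CPM. Against C57 it was higher in control (log2 1.2, edgeR adjusted p = 0.000348). In Yap CKO it was not called lower than in C57 (log2 -0.41, edgeR adjusted p = 0.126).

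The Fosl1 call rested on most of the libraries. Its adjusted p by edgeR was 0.0561 without control 1, 0.0592 without control 2, 0.0541 without Yap CKO 1 and 0.103 without Yap CKO 2, where the log2 difference was -0.92, -0.79, -0.83 and -0.86 in turn. It was 0.0268 without control 3 and 0.00881 without Yap CKO 3, and 0.0669 in one fit over all 9 libraries. The size of the difference ranged from -0.95 to -0.79 over all alternatives. Before adjustment, 2 of 8 members (Fosl1 and Fosl2) had a p under 0.05, as had 17.8% of all genes, and in the joint fit Fosl1 alone.

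**Figure D2:**
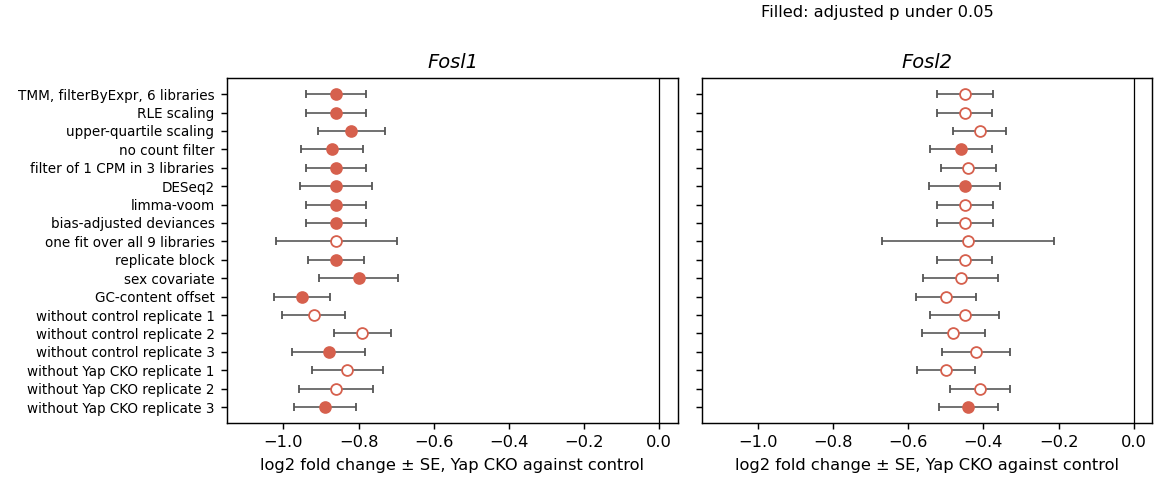
Log2 fold change (± SE) of Fosl1 and Fosl2, Yap CKO against control, under each alternative; filled points have an adjusted p under 0.05. Fosl1 stays between -0.95 and -0.79 while its call is lost when control 1, control 2, Yap CKO 1 or Yap CKO 2 is left out or all 9 libraries are fitted together.

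In the annotation used here, 1163 of the exon bases of Fosl1 (57.2%) also belong to Ccdc85b on the other strand. Whether reads were counted by strand is not given in the sources used here, and the Fosl1 count and its RPKM are uncertain to that extent. Such overlaps cover 52.6% of the exon bases of Jund (Gm11175), 7.28% of Jun (Junos) and 7.52% of Junb (Prdx2). Ccdc85b was at 46.6 to 47.2 CPM in control and 46.7 to 55.4 CPM in Yap CKO (log2 fold change 0.09, adjusted p = 0.567). In C57 it was at 7.71, 1.88 and 0.902 CPM, and it rose in both P60 groups (log2 3.76 and 3.84, adjusted p = 0.00146 and 0.00558). Gm11175, over Jund, was also higher in both, with 3, 0 and 0 counts in C57 and 31 to 41 at P60. It passed the count filter through the P60 libraries alone, so it could enter only as higher. The part of these overlaps in the levels of Fosl1 and Jund was not tested.

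Fosl2, the gene of the related FRA-2 (chromosome 5, 32135801 to 32157842, plus strand), was at 53.7, 50.5 and 55.3 CPM in control 1, 2 and 3 and at 42.0, 36.4 and 38.6 CPM in Yap CKO 1, 2 and 3. The groups did not overlap, as in 12.1% of all genes for the lower direction. The log2 fold change of -0.45 (SE 0.0742, interval -0.62 to -0.27) missed the threshold by edgeR (adjusted p = 0.0647). Fosl2 passed by DESeq2 (adjusted p = 0.000168), without a count filter (0.0117) and without Yap CKO 3 (0.0219). In C57 it stood at 9.13 and 9.30 CPM in C57 1 and 2 and at 19.2 CPM in the unnumbered library, below every P60 library. It rose 4.12-fold in control (log2 fold change 2.04, SE 0.277, adjusted p = 0.000833) and 3-fold in Yap CKO (log2 1.59, SE 0.278, adjusted p = 0.00282) against C57.

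Fos, the founding member (chromosome 12, 85473890 to 85477273, plus strand), was at 21.3, 17.7 and 15.5 CPM in C57 1, C57 2 and the unnumbered C57 library. It stood at 73.2, 51.4 and 67.7 CPM in control 1, 2 and 3 and at 74.5, 43.0 and 43.4 CPM in Yap CKO 1, 2 and 3. All P60 values lay above all C57 values, while the P60 groups overlapped. The increase over C57 was 3.45-fold in control (adjusted p = 0.000205) and 2.87-fold in Yap CKO (adjusted p = 0.00182). Fosb, whose product closely resembles that of Fos (chromosome 7, 19302696 to 19310051, minus strand), stayed low, at 3.18 to 3.75 CPM in C57, 5.91 to 10.9 CPM in control and 4.11 to 13.6 CPM in Yap CKO. It had the smallest increase of the 8 members in both comparisons, 2.38-fold in control (adjusted p = 0.00491) and 2.40-fold in Yap CKO (adjusted p = 0.0357). The latter call was lost without any one of the 3 C57 libraries, without Yap CKO 1 or without Yap CKO 2 (adjusted p from 0.0857 to 0.108).

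Of the Jun genes, which supply the partner that Fos proteins need, the single-exon gene Jun (chromosome 4, 95049034 to 95052222, minus strand) was at 29.6, 15.8 and 14.5 CPM in C57, 121, 161 and 127 CPM in control, and 142, 153 and 122 CPM in Yap CKO. It rose 6.71-fold and 6.77-fold over C57 (adjusted p = 0.000246 and 0.000213). Jund, the family member usually expressed at rest (chromosome 8, 70698949 to 70700616, plus strand), was at 29.2, 18.0 and 11.9 CPM in C57. It stood at 149, 151 and 151 CPM in control and at 161, 153 and 175 CPM in Yap CKO, 7.5-fold and 8.06-fold above C57 (adjusted p = 0.00022 and 0.000218). In both genes C57 1 was highest and the unnumbered C57 library lowest.

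Junb, an immediate-early partner of Fos proteins (chromosome 8, 84974484 to 84978718, minus strand), showed the second largest increase after Fosl1. It was at 5.45, 0.865 and 0.486 CPM in C57 (65, 12 and 7 counts), 139, 116 and 135 CPM in control, and 149, 117 and 87.7 CPM in Yap CKO. C57 1 stood above the other C57 libraries, and all C57 values were far below P60. The log2 fold changes were 5.88 (SE 0.643, adjusted p = 0.000326) and 5.71 (SE 0.819, adjusted p = 0.00358). Without C57 1 they were 7.55 and 7.39.

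Atf3, a stress-induced member known from injured neurons (chromosome 1, 191170296 to 191218039, minus strand), was at 4.86, 4.98 and 6.94 CPM in C57 and at 54.8, 61.6 and 59.4 CPM in control. Yap CKO 1 and 2 lay higher, at 67.1 and 76.4 CPM, and Yap CKO 3 lower, at 36.2 CPM. The increase was 10.2-fold in control (adjusted p = 1.51e-05) and 10.4-fold in Yap CKO (adjusted p = 0.000156). All 7 members apart from Fosl1 had at least 7 counts in every C57 library. Fosl1 passed the filter on low counts through the P60 libraries alone.

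Read against all genes, 8 of 8 members were called higher in control than in C57, where 23.1% of genes were, and 8 of 8 were higher in Yap CKO than in C57, where 20.3% were. Their median log2 fold changes were 2.83 and 2.89, against 0.03 and 0.02 over all genes tested. All 8 had no overlap with C57, as 32.3% and 30.3% of genes had in the higher direction and 26.6% and 24.8% in the lower. No member was lower, where edgeR called 22.4% and 20.2% of genes lower, and 53.6% and 50.2% had an unadjusted p under 0.05 in either direction. By DESeq2 all 8 were again higher in both, against 23.6% and 21.4% of genes higher and 24.3% and 21.7% lower. Both comparisons share the C57 libraries, and Fosl1 could enter them only as higher, having passed the count filter through the P60 libraries alone. Age, floxed alleles, 4-OHT, source series, depth and whatever MNU stands for differ between C57 and the P60 groups and cannot be told apart.

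**Figure D3:**
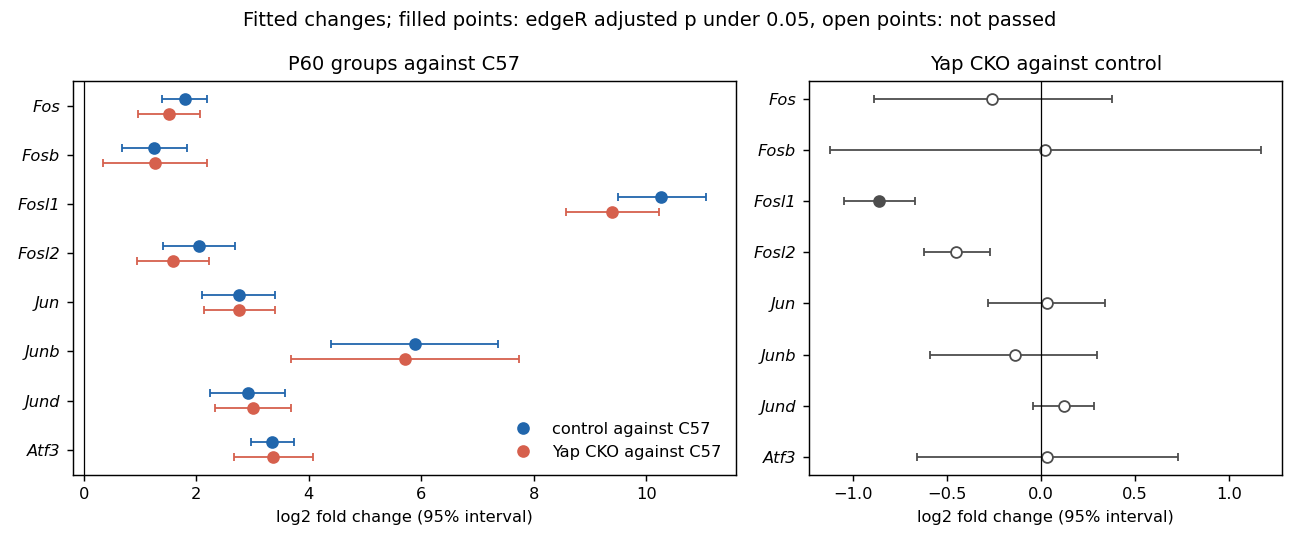
Fitted log2 fold changes of the 8 members with 95% intervals, for both P60 groups against C57 (left) and Yap CKO against control (right); filled points passed the edgeR test. Every member is above 0 against C57, from about 1.25 for Fosb to 10.27 for Fosl1, and Fosl1 alone is filled on the right. For Fosl1 against C57 the intervals are narrower than its counting error alone.

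Between the P60 groups the members divided evenly, 4 above and 4 below 0, with a median of -0.06 against 0.01 for all genes. For Jun the interval of the log2 difference ran from -0.28 to 0.34, for Junb from -0.59 to 0.30 and for Jund from -0.04 to 0.28. It was wider for Fos (-0.89 to 0.38), Atf3 (-0.66 to 0.73) and Fosb (-1.12 to 1.17). These intervals do not show that the members were equal in the P60 groups. The Jund groups did not overlap, with control below Yap CKO, as in 13.0% of genes for the higher direction (adjusted p = 0.416). Its log2 difference was 0.12, and genes over 60% GC, among them Jund, had a median of 0.13 in this comparison.

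Per kilobase of exon, the make-up of the family differed between C57 and P60. In C57, Jund was highest (11.8 ± 5.27 RPKM), followed by Fos (7.72 ± 1.23) and Jun (6.26 ± 2.62 RPKM; SD, n = 3), whose ranges overlapped. Atf3 (2.6), Fosl2 (1.3), Junb (0.985), Fosb (0.57) and Fosl1 (0.0649 RPKM) followed, with the Junb range overlapping those of Atf3, Fosl2 and Fosb. In control, Jund (90.2 ± 0.914) and Fosl1 (80.6 ± 6.61) led, ahead of Junb (56.5 ± 5.31), Jun (42.7 ± 6.74), Fos (27.3 ± 4.81) and Atf3 (27.2 ± 1.59 RPKM), and among these only Fos and Atf3 overlapped as neighbours. In Yap CKO, Jund (97.9 ± 6.65) stood above Junb (51.1 ± 13.3), Fosl1 (44.4 ± 1.75) and Jun (43.5 ± 4.93), which overlapped with each other, and Atf3 (27.8 ± 9.77) and Fos (22.8 ± 7.69 RPKM) overlapped below them. Fosl2 (5.49 and 4.03 RPKM) and Fosb (1.39 and 1.41 RPKM) were lowest in both P60 groups.

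As a share of the summed RPKM of the 8 members, Fosl1 made up 0 to 0.294% in C57, 23.0% to 26.2% in control and 13.5% to 17.3% in Yap CKO. The share of Fos ran the other way, from 21.5% to 27.3% in C57 to 6.51% to 9.53% in control. The summed level was 24.3 to 42.1 RPKM in C57, 326 to 336 in control and 268 to 318 in Yap CKO.

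**Figure D4:**
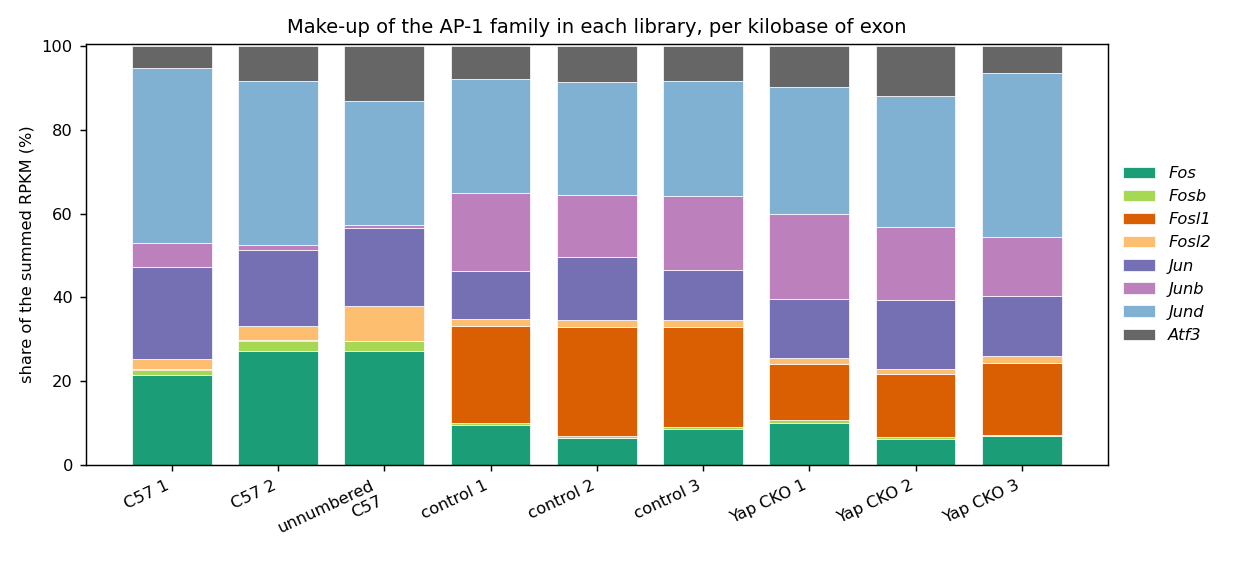
Share of each member in the summed RPKM of the 8 members, one stacked bar per library (percent of the sum). Fosl1 is at most 0.294% in C57, 23.0% to 26.2% in control and 13.5% to 17.3% in Yap CKO.

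Base composition moved with part of the increase over C57. The C57 libraries differed among themselves by GC content: genes with over 60% GC had a median log2 difference of 0.91 between C57 1 and the unnumbered C57 library, and genes under 45% GC one of -0.40. Between control 1 and control 2 these medians were -0.01 and 0.02. Against C57, genes over 60% GC had a median log2 fold change of 0.70 in control and 0.80 in Yap CKO. Junb and Jund have 62.6% and 67.1% GC in their longest transcript, and the other members 51.9% to 58.5%.

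With an offset for GC in each library, an alternative chosen after seeing the data, Jund changed most: its log2 fold change against C57 went from 2.91 to 1.76 in control and from 3.01 to 1.71 in Yap CKO (adjusted p = 1.2e-06 and 3.04e-06). Junb went from 5.88 to 5.25 and from 5.71 to 5.02. Fosl1 stood at 9.92 and 8.96, Atf3 at 3.38 and 3.35, and Jun at 2.64 and 2.59. All 8 members kept their call in control, and 7 of 8 in Yap CKO, where Fosb missed it (log2 1.00, adjusted p = 0.112). The Fosl1 difference between the P60 groups was -0.95 with this offset (adjusted p = 0.0108). That of Jund went from 0.12 to -0.06.

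**Figure D5:**
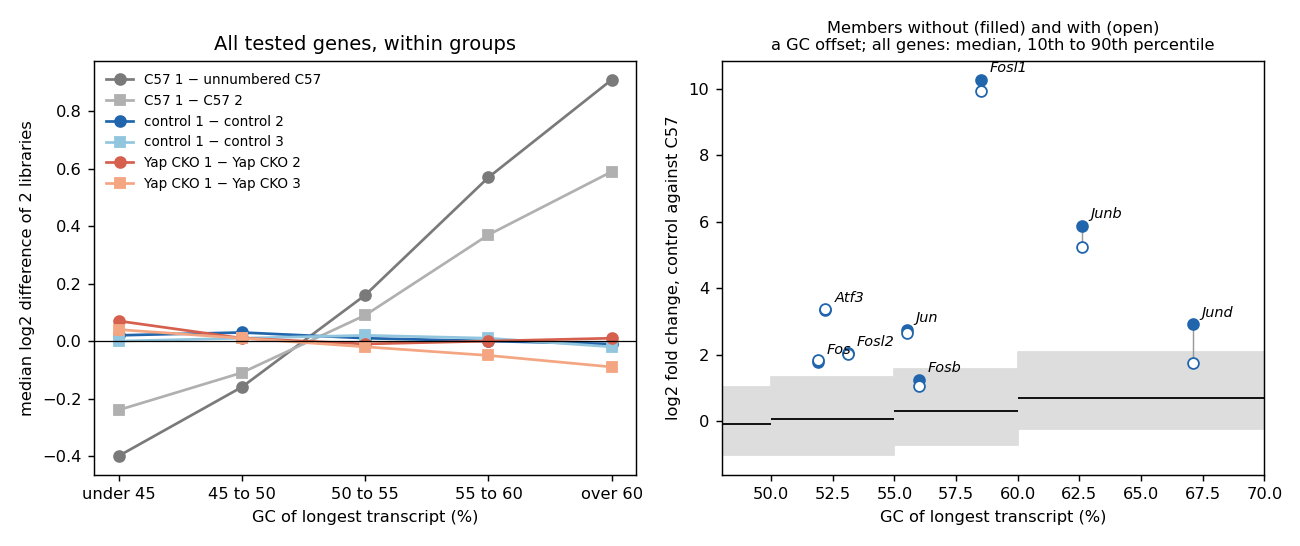
Left, median log2 difference between libraries of one group by GC content of the transcript. Right, log2 fold change of each member in control against C57 at its GC content, without (filled) and with (open) a GC offset, over the median and 10th to 90th percentile of all genes. The C57 lines climb with GC to 0.91 while the P60 lines stay near 0, and Jund moves from 2.91 to 1.76.

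Levels of cell type markers also differed between C57 and P60, and in whole retina fewer cells of a type and less RNA per cell cannot be told apart. The sum of 8 rod markers was 93000 to 108000 CPM in C57, 3770 to 19900 in control and 917 to 20900 in Yap CKO. All 8 passed as lower in control and 3 of 8 in Yap CKO against C57, with median log2 fold changes of -3.14 and -3.23. In Yap CKO all 8 were lower at an unadjusted p under 0.05, which 50.2% of all genes had in either direction. The sum of 8 Müller glia markers was 7230 to 7400 CPM in C57, 2400 to 2790 in control and 2020 to 2630 in Yap CKO, with 7 lower and 1 higher in each P60 group. Sums of 8 microglia and macrophage markers were 47.3 to 59.9, 60.5 to 68.7 and 59.8 to 89.6 CPM, of which 3 rose and 1 fell in each P60 group. Among all genes tested, edgeR called 23.1% higher and 22.4% lower in control, and 20.3% and 20.2% in Yap CKO. Of 6 neutrophil markers, 2 to 5 had no count in each library and their sum was at most 0.729 CPM.

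Among vascular markers the sum was 409 to 511 CPM in 8 libraries and 687 in Yap CKO 3. For pigment epithelium it was 213 to 235 CPM in C57, 94.2 to 109 in control and 50.3 to 158 in Yap CKO. Yap CKO 3 also held 948 CPM of 8 lens markers against at most 20.0 CPM elsewhere. The part of these other cells in the AP-1 levels was not tested. Yap CKO 3 had the lowest Atf3, Junb, Fosb and Jun of its group, and without it the Fosl1 difference was -0.89. By Xist and Y-linked genes, all 3 controls, Yap CKO 3 and C57 2 were male and the other libraries female. With sex as a covariate the contrast sets the lone male Yap CKO 3 against the controls, and it is assumed to vary like the other libraries. Fosl1 then differed by -0.80 on the log2 scale (adjusted p = 0.0421), in a value that rests on that 1 Yap CKO library.

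Within both P60 groups, Fosb and Junb were ordered like the sum of rod markers, and Fosl1 in reverse. In control, where rod markers were highest in control 1 and lowest in control 2, Fosb was at 10.9, 5.91 and 9.30 CPM in control 1, 2 and 3. In Yap CKO, where they were highest in Yap CKO 1 and lowest in Yap CKO 3, Fosb was at 13.6, 8.74 and 4.11 CPM in Yap CKO 1, 2 and 3. Of all genes tested, 11.3% followed the rod order in both groups and 6.02% the reverse, so these orders are a description.

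The genes whose profiles over the 9 libraries came nearest to that of Fosl1 were Lif, Ccl2 and Cebpd, by the root mean square difference of centred log2(CPM + 1) values (0.34, 0.67 and 0.73) among 11612 candidates. Lif, a cytokine that Müller glia are known to make in injured retina, went from 0.296 CPM in C57 to 170 in control and 70.3 in Yap CKO, and Ccl2, a chemokine for monocytes, from 0.024 to 131 and 30.2 CPM. Cebpd, a bZIP factor of the acute phase, went from 1.98 to 128 and 142 CPM. Nearest to Fosl2 were Chml, F2rl1 and Tead1, all at 0.23, and Tead1 encodes a DNA-binding partner of YAP. Junb lay nearest to Tubb6, Cebpd and Gadd45b (0.47 to 0.56), Jund to Bmp1 (0.15), Jun to Efhd2 (0.16), Fos to Klhl29 (0.22), Fosb to Tnip2 (0.18) and Atf3 to Gch1 (0.26).

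Further bZIP factors that can join AP-1 pairs ranged widely. Of 15 listed, 12 were tested against C57, and edgeR called 7 higher and 0 lower in each P60 group (also 7 and 0 before adjustment), where 23.1% and 20.3% of all genes were higher, with medians of 0.72 and 0.61 on the log2 scale. Maff, a small Maf protein without an activation domain, rose from 1.33 to 20.1 CPM in control (log2 fold change 3.87, adjusted p = 5.32e-05), and Atf5 from 25.2 to 123 CPM (2.26, adjusted p = 0.000159). Mafa, another Maf factor, passed at levels near 0 (0.0279 CPM in C57, 0.674 in control and 0.749 in Yap CKO). Having passed the count filter through the P60 libraries alone, Mafa could enter only as higher. Atf2, a JNK substrate that pairs with Jun, was at 94.4 CPM in C57 and 84.4 in control (adjusted p = 0.392). In Yap CKO against control, none of 13 passed in edgeR, while 3 were lower before adjustment (p under 0.05, against 17.8% of all genes in either direction), and Maff was at 12.5 against 20.1 CPM (log2 -0.69, adjusted p = 0.058).

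Of 24 kinases and scaffolds upstream of AP-1, 9 rose and 4 fell in control against C57, and 8 rose and 4 fell in Yap CKO against C57. Of all genes, 23.1% and 20.3% were higher and 22.4% and 20.2% lower. Map2k3, an activator of p38, rose from 6.62 to 22.7 CPM in control (log2 1.75), while Map2k6, which also activates p38, fell from 16.7 to 8.06 CPM (-1.09). Between the P60 groups none of 24 passed in edgeR, while 1 was higher and 3 were lower before adjustment, near the 17.8% of all genes. Rps6ka3, the ERK-activated kinase RSK2, was at 77.0 in Yap CKO against 109 CPM in control (log2 -0.50, adjusted p = 0.0619).

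Of 12 regulators of AP-1 turnover and JNK phosphatases, 5 rose and 1 fell in control, and 5 rose and 2 fell in Yap CKO, against C57. Among all genes tested, 23.1% and 20.3% were called higher and 22.4% and 20.2% lower. Zfp36, which binds AU-rich messages for decay, rose from 3.73 to 41.2 CPM in control and 28.8 CPM in Yap CKO (log2 3.44 and 2.91). None of the 12 passed between the P60 groups in edgeR, while 6 were lower and 0 higher before adjustment (17.8% of all genes in either direction).

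Genes known as AP-1 targets in other settings were mostly higher at P60. This list, like the other gene lists, was chosen with earlier results of these data known, so its counts are a description. Of 24 tested of 28 listed, 20 rose and 1 fell in control against C57, with a median log2 fold change of 3.59. In Yap CKO 21 rose and 0 fell (21 and 1 before adjustment), with a median of 3.68. Of these genes, Mmp3, Ccl2, Plaur, Sprr1a, Il11, Timp1, Mmp12, Plau and Lif were at 0 to 0.296 CPM in C57. They passed the count filter through the P60 libraries alone and could enter only as higher, which raises these counts and medians. Among all genes tested, 23.1% and 20.3% were called higher and 22.4% and 20.2% lower. An unadjusted p under 0.05 was found for 53.6% and 50.2% of all genes in either direction. The hyaluronan receptor Cd44 rose from 15.1 to 438 and 296 CPM, and Hmox1, which degrades haem, from 4.02 to 114 and 171 CPM. Bcl2l11, which promotes cell death, fell in control (log2 -0.59, adjusted p = 0.0108). Between the P60 groups, 10 of 26 were lower in Yap CKO and 4 higher before adjustment, against 17.8% of all genes in either direction. After adjustment 3 were lower and 0 higher, where edgeR called 0.181% of all genes lower and 0.0181% higher. Those 3 were Ccl2 (log2 -2.11, adjusted p = 0.0369), the EGF receptor ligand gene Hbegf (85.2 against 163 CPM, log2 -0.94, adjusted p = 0.0496) and Plau, the urokinase gene (8.71 against 14.3 CPM, log2 -0.71, adjusted p = 0.0496). Mmp12, a macrophage elastase, stood the other way, at 8.11 against 2.68 CPM (log2 1.60, adjusted p = 0.0553). Lif, the 7th of the list by p, was at log2 -1.28 (adjusted p = 0.0738).

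Other immediate-early genes, which also respond to handling of tissue, were part of the same comparison. Of 19 tested, edgeR called 13 higher and 0 lower in control against C57 (15 and 0 before adjustment). In Yap CKO 12 of 20 rose and 0 fell (13 and 0 before adjustment). Among them, Myc, Egr2 and Egr3 (0.375, 0.024 and 0.0982 CPM in C57) passed the count filter through the P60 libraries alone. These could enter only as higher. Among all genes tested, 23.1% and 20.3% were called higher and 22.4% and 20.2% lower. An unadjusted p under 0.05 was found for 53.6% and 50.2% of all genes in either direction. Myc went from 0.375 to 55.3 and 37.8 CPM and Egr1 from 20.1 to 155 and 141 CPM. Btg2 (77.2 and 76.3 CPM in C57 and control) and Nr4a3 (4.13 and 4.15 CPM) were among those that did not pass in control. Between the P60 groups none of 20 passed in edgeR, while 1 was higher and 8 were lower before adjustment (17.8% of all genes in either direction).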

How the data were processed

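Bulk RNA sequencing libraries of whole mouse retina were analysed from the deposited table of whole-number read counts per Ensembl gene, which is not normalized. Per the submitters' processing notes, HISAT2 2.1.0, featureCounts, edgeR and GRCm38 were used; for annotation release and strand, the setting is not given in the sources used here. The authors' deposited comparison table of 305 genes gave log2 fold changes with p-values and false discovery rates, per the file headers; its 9 columns of values per library were not used. One C57 column has a number that no label carries and is called the unnumbered C57 library.

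Total counts were 13760765 to 16808499 in C57 and 34739679 to 37629264 at P60. Libraries of one group differed pairwise by more than sampling noise (chi-square per degree of freedom 22.6 to 133). For each comparison the 6 libraries concerned were filtered with filterByExpr (minimum count 10, minimum total 15), scaled by TMM and fitted with edgeR 4.0.16 quasi-likelihood tests (R 4.3.3, robust, group only), with Benjamini-Hochberg adjustment over all genes and a threshold of 0.05. Unless another tool is named, each adjusted p is from that test; SE is the unshrunk log2 fold change divided by the root of F. Levels are CPM scaled over all 9 libraries. Lengths, GC and positions came from GENCODE M21 (GRCm38), symbols were found for 47224 identifiers, and promoters came from RefSeq.

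The fit was tested on simulated data. Alternatives were RLE and upper-quartile scaling, 2 other count filters, DESeq2 1.42.0, limma-voom (limma 3.58.1), bias-adjusted deviances, one fit over 9 libraries, thresholds of 0.10 and 0.01, a replicate block, sex, leaving out each library and, chosen after seeing the data, a GC offset. The members and gene lists were chosen with earlier results of these data known. Named were all 8 members, up to 4 genes per list and comparison with the smallest p, Yap1 and the 3 nearest profiles per member. Hmox1, Bcl2l11, Egr1, Btg2, Nr4a3, Ccdc85b and Gm11175 lie outside that rule and were chosen after their values were seen. So do Mmp3, Plaur, Sprr1a, Il11 and Egr3, named only for their low levels in C57, and Junos and Prdx2, named only as overlapping genes.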

Additional observations from a re-analysis of the deposited data

How the results depend on the processing

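In both comparisons with C57, all members kept a positive direction under every alternative run, and 7 or 8 of 8 were called higher. The exceptions were Junb with the replicate block in control (log2 5.53, adjusted p = 0.0522), Fosb with sex as a covariate in control (1.18, adjusted p = 0.0852), and Fosb in Yap CKO with limma-voom, a threshold of 0.01, the GC offset or single libraries left out. In Yap CKO against control, the count of members called lower was 1, and it was 2 without a count filter, 2 by DESeq2, 2 at a threshold of 0.10, 0 at 0.01 and 0 in one fit over 9 libraries (1 at an unadjusted p under 0.05). It ranged from 0 to 2 with single libraries left out. At an unadjusted p under 0.05, 2 to 4 members were then lower, and 1 (Atf3) was higher without Yap CKO 3. With all libraries, 17.8% of all genes had such a p in either direction. With sex as a covariate 4 were lower and 1 higher at that p, in a fit that rests on 1 Yap CKO library. The replicate block changed no call there (1 member lower, Fosl1 log2 -0.86, adjusted p = 0.0238). Deviations of same-numbered control and Yap CKO libraries correlated at 0.533, -0.078 and 0.01, so the numbers were not taken to pair samples; with C57 the block could use 4 libraries only.

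Members near 0 changed sign between the P60 groups. Fosb, at 0.02, was at -0.10 by limma-voom, -0.07 with the block, -1.08 with sex and -0.05 with the GC offset. Atf3, at 0.03, was at -0.04, -0.03, -0.70 and -0.01 in the same order, Jun at -0.16 with sex and -0.04 with the GC offset, and Jund at -0.06 with the GC offset. With single libraries left out, Fosb ranged from -0.43 to 0.36, Atf3 from -0.19 to 0.29, Jun from -0.06 to 0.17 and Junb from -0.34 to 0.03. The 0.29 of Atf3 was without Yap CKO 3 (SE 0.084, edgeR adjusted p = 0.0708). Over all genes the edgeR count moved from 30 lower and 3 higher to 0 and 0 without control 1 or control 2 and to 817 and 656 without Yap CKO 3, and DESeq2 gave 558 and 364. Against C57, Fosl1 rests on 5 counts, and its log2 fold change in control was 11.06 without C57 1 and 9.66 without the unnumbered library. The cause of these shifts was not tested.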
